A study of Mus musculus with 5 samples.

Results

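The interferon-stimulated genes described here are 40 named genes of the type I interferon response, picked by symbol out of the 55487 genes in a table of counts from mouse HT22 cells. All 40 symbols matched a single Ensembl gene of the GRCm38 annotation, all 40 had reads in the table, and 39 passed the filter on low counts. The exception was Mx1, with 2 to 12 reads a library. HT22 is an immortalized mouse line of hippocampal origin, which the labels call neuronal, and the study asked what changes in these cells when GAS5, a long non-coding RNA, is knocked down (KD). Poly(A) RNA was sequenced 48 h after transfection with 10 nM siRNA in 5 libraries: 1 with GAS5 siRNA210, 2 with GAS5 siRNA596 and 2 with a negative control (NC) siRNA. Every library came from cells that received a transfection reagent and a double-stranded siRNA. One label field calls the NC samples untreated, whereas their titles and the treatment protocol give NC siRNA, and no library from cells without siRNA was analysed here. Nothing in the labels says whether replicates were separate cultures, so the P values below measure only the spread between these libraries, which may be technical.

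Interferons are secreted proteins that cells make after sensing foreign nucleic acid. Type I interferon binds the receptor chains IFNAR1 and IFNAR2, the kinases JAK1 and TYK2 phosphorylate STAT proteins such as STAT2, and these join IRF9 in a complex called ISGF3 that binds the interferon-stimulated response element in the promoters of its target genes. The targets bind or degrade viral RNA, block translation, trap virions or attach the ubiquitin-like protein ISG15 to other proteins, and some of them, such as USP18, damp the pathway again.

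The library totals ran from 30660265 to 36492134 counts. Gas5, the target of the siRNAs, had a normalised counts-per-million level (CPM) of 90.4 in NC replicate 1 and 76.0 in NC replicate 2. It had 59.7 CPM with siRNA210 and 65.9 in siRNA596 replicate 1, but 179 in siRNA596 replicate 2. That last library thus did not have the lower Gas5 level that its label implies. Its levels also followed gene length, as described below, and the part of length in its Gas5 level was not tested. For these reasons KD against NC was fitted on the 4 libraries without siRNA596 replicate 2. The mean counts of these 4 also match those of the table deposited by the authors to within 0.0977%. The fit of all 5 libraries is given beside that of the 4. In the 4 libraries Gas5 differed by -0.41 ± 0.11 (SE) on the log2 scale, with an unadjusted P of 0.00377 and an adjusted P of 0.967 in edgeR's quasi-likelihood test. Of the defining markers of other cell types, Ptprc, Itgam, Tyrobp and Adgre1 of microglia and macrophages were at 0 in all 5 libraries, and the summed level of the 8 genes on that list was 5.21 to 10.8 CPM, with NC replicate 2 lowest. On the same list Cd68 had 193, 145, 198, 194 and 228 counts in NC replicates 1 and 2, siRNA210 and siRNA596 replicates 1 and 2. Csf1r had 18, 47, 22, 34 and 50, and was thus 2.39-fold higher in NC replicate 2 than in NC replicate 1 (95% interval for counting error, 1.36 to 4.38). Its part in the results was not tested. On the list of 8 neuronal markers, Snap25, Nefl, Nefm and Stmn2 were at 0 as well, while Tubb3, Map2 and Syp had more than 3 counts in every library. The list thus went with the neuronal label in part only. Of the 4 neural progenitor genes, Nes, Vim and Pax6 had more than 3 counts in every library, while Sox2 was at 0 in all 5. The 4 summed to 3045 to 4867 CPM, a sum that does not tell the 3 expressed genes apart. The 4 fibroblast genes summed to 3833 to 5248 CPM, most of it Col1a1. In a bulk sample a change in the number of expressing cells and a change in RNA per cell cannot be told apart.

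The main pattern among the members lay between the 2 NC libraries. In NC replicate 2, 39 of the 40 members had a higher normalised level than in NC replicate 1, with a median log2 ratio of 0.66 (1.58-fold) and a range from -0.05 for Oas3 to 2.05 for Ifit1. The siRNA210 library and siRNA596 replicate 1 stayed near NC replicate 1, with median log2 ratios of 0.04 and 0.08. Of the 39 members tested, 20 were more than 1.5-fold higher in NC replicate 2 than in NC replicate 1, and 0 were more than 1.5-fold lower. Over all 16142 genes tested, 8.5% were past this fold in the higher and 10.7% in the lower direction. Where the mean over the libraries was 50 counts or more, which keeps counting error small, 16 of 35 members were past it in the higher direction, beside 2.64% of all such genes. NC replicate 2 was the highest of the 5 libraries for 28 of the 40 members, beside 19% of all genes, and the highest of the 4 libraries without siRNA596 replicate 2 for 36 of 40, beside 32.5% of all genes. NC replicate 1 was the highest of the 5 for 0 members. These are differences between single libraries, 2 of them replicates of 1 group, so they carry no test, and the intervals given below cover counting error only.

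**Figure D1:**
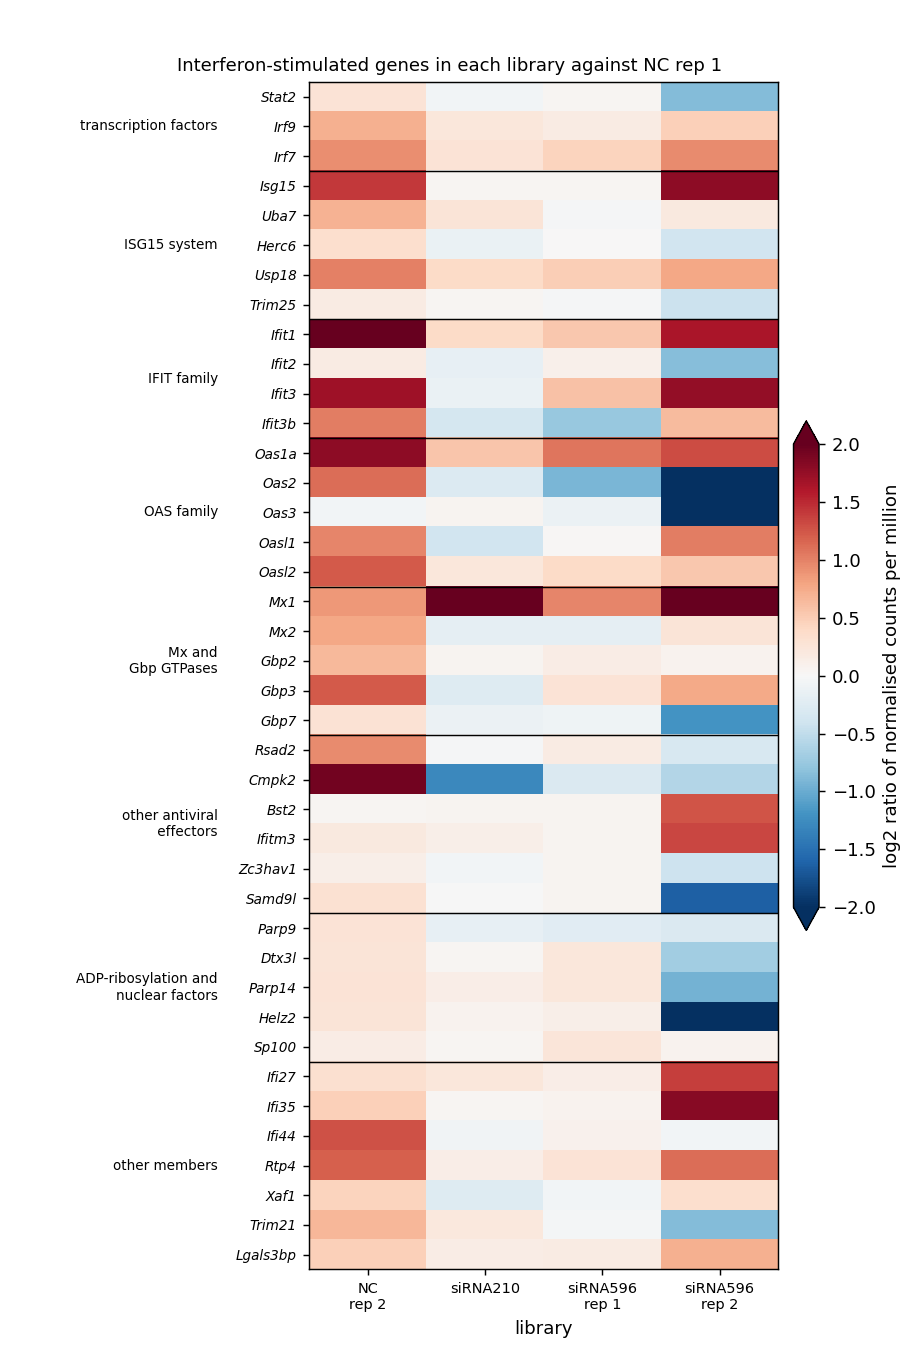
Log2 ratio of normalised CPM in each library (columns) over NC replicate 1 for the 40 interferon-stimulated genes (rows, grouped by role). NC replicate 2 is above NC replicate 1 in 39 of 40 rows, siRNA210 and siRNA596 replicate 1 are mostly pale, and the library labelled siRNA596 replicate 2 holds both much higher and much lower levels. Colours end at ±2, and Mx1 rests on 2 to 12 reads a library.

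The promoters of the members whose levels frame this pattern were read from RefSeq. A promoter entry matched 32 of the 40 members. Usp18, Oas2, Mx1, Mx2, Parp9, Parp14, Ifi27 and Rtp4 had none. The core of the interferon-stimulated response element was searched as GAAANNGAAA on both strands in the 250 bases before the start, counting overlapping matches, and 12 of the 32 members held it (37.5%), beside 3.46% of the 27025 genes with an entry. The 200 bases upstream of the start are shown for Isg15, Ifit1, Ifit3 and Ifit3b, 4 members with high levels in NC replicate 2, and for Bst2, which carries the motif and was level across both NC libraries. Capitals mark the matches, which read as the reverse complement in the IFIT genes, and each sequence is given 5′ to 3′ along the gene's strand in GRCm38.p6.
Isg15 (chr4:156200819-156201018, minus strand): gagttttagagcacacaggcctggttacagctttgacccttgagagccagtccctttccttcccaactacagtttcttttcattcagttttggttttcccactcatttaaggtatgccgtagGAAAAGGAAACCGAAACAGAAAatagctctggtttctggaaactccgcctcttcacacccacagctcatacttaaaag
Ifit1 (chr19:34640689-34640888, plus strand): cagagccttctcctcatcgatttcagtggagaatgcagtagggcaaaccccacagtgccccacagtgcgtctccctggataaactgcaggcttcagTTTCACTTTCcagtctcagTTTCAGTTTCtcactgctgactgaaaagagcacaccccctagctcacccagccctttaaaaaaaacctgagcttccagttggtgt
Ifit3 (chr19:34583329-34583528, plus strand): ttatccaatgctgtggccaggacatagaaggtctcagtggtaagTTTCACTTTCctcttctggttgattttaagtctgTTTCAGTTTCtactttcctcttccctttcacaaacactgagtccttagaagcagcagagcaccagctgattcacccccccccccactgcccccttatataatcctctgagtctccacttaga
Ifit3b (chr19:34607757-34607956, plus strand): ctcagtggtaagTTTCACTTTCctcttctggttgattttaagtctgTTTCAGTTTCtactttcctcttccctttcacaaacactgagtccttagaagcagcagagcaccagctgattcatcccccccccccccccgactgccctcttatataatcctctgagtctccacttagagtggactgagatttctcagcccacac
Bst2 (chr8:71537473-71537672, minus strand): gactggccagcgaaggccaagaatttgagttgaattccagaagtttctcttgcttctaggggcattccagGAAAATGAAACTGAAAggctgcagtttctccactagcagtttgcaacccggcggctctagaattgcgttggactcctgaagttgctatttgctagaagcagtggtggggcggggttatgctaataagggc

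The Isg15 promoter held 3 overlapping matches between 78 and 57 bases before the start, and the Bst2 promoter held 2 between 130 and 115 bases. The upstream sequences of Ifit3 and Ifit3b, offset by 32 bases and compared without gaps, were identical at 138 of 168 positions (82.1%). A run of C differs in length between the sequences, so the bases after it were compared out of register. The 2 genes are neighbours on chromosome 19. They are near copies, the study does not say how reads matching several places were counted, and their separate counts are uncertain. Whether reads are shared within the OAS and Gbp families was not tested. Members with the motif had a median log2 ratio of 0.99 in NC replicate 2 over NC replicate 1, and the 20 members with an entry but no match had 0.45. Of these, 8 of the 12 and 8 of the 20 were past 1.5-fold higher, beside 8.5% of all 16142 genes tested. Ifit3 and Ifit3b both count among the 12. The members without an entry are outside this split, and their log2 ratios ran from 0.27 for Parp9 and Parp14 to 1.20 for Rtp4. The share among all genes with the motif was not computed. Of the 36 promoter sequences of the members, 26 had their first bases after the start in an annotated transcript of the gene. For the others the position of the start, and so of the window searched, is less certain. A match is a description of the letters, and members without one in this window may carry other forms of the element.

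In what follows the raw counts of a gene are given in the order NC replicate 1, NC replicate 2, siRNA210, siRNA596 replicate 1 and siRNA596 replicate 2, and ratios are between normalised CPM. The transcription factors of ISGF3 come first. Irf9, its DNA-binding subunit, had 827, 1476, 978, 947 and 859 counts, a 1.64-fold higher level in NC replicate 2 than in NC replicate 1 (95% interval for counting error, 1.5 to 1.78). Stat2, a subunit that activates transcription, had 1442, 1914, 1417, 1510 and 598 counts, and its ratio was 1.22 (1.14 to 1.30). Irf7, the factor that amplifies interferon production, had 319, 662, 391, 439 and 462 counts, 1.90-fold more in NC replicate 2 (1.66 to 2.18). For Irf9 and Irf7 the siRNA210 library and siRNA596 replicate 1 lay between the NC libraries. Neither KD library reached the level of NC replicate 2 in any of the 3 genes.

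The ISG15 system makes and removes conjugates of the ubiquitin-like protein ISG15. Isg15 itself (chr4:156199424-156200818), the modifier, had 1049, 3058, 1100, 1098 and 2732 counts, or 29.8, 79.7, 30.7, 30.7 and 103 CPM. Its level was thus 2.67-fold higher in NC replicate 2 than in NC replicate 1 (2.49 to 2.87), while the siRNA210 library and siRNA596 replicate 1 were alike to the digits printed. Uba7, the activating enzyme of ISG15, had 310, 550, 378, 311 and 268 counts (1.63-fold, 1.41 to 1.88). Herc6, the ligase that attaches ISG15 in mice, had 555, 767, 515, 568 and 321 counts (1.27-fold, 1.13 to 1.42). The protease Usp18, which removes ISG15 and inhibits the interferon receptor, had 86, 189, 114, 123 and 110 counts (2.01-fold, 1.55 to 2.63). Trim25, a ubiquitin ligase that acts with the RNA sensor RIG-I, had 3415, 4159, 3561, 3426 and 1905 counts (1.12-fold, 1.07 to 1.17). The modifier, its activating enzyme and its protease were past 1.5-fold in NC replicate 2, and both ligases were not.

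**Figure D2:**
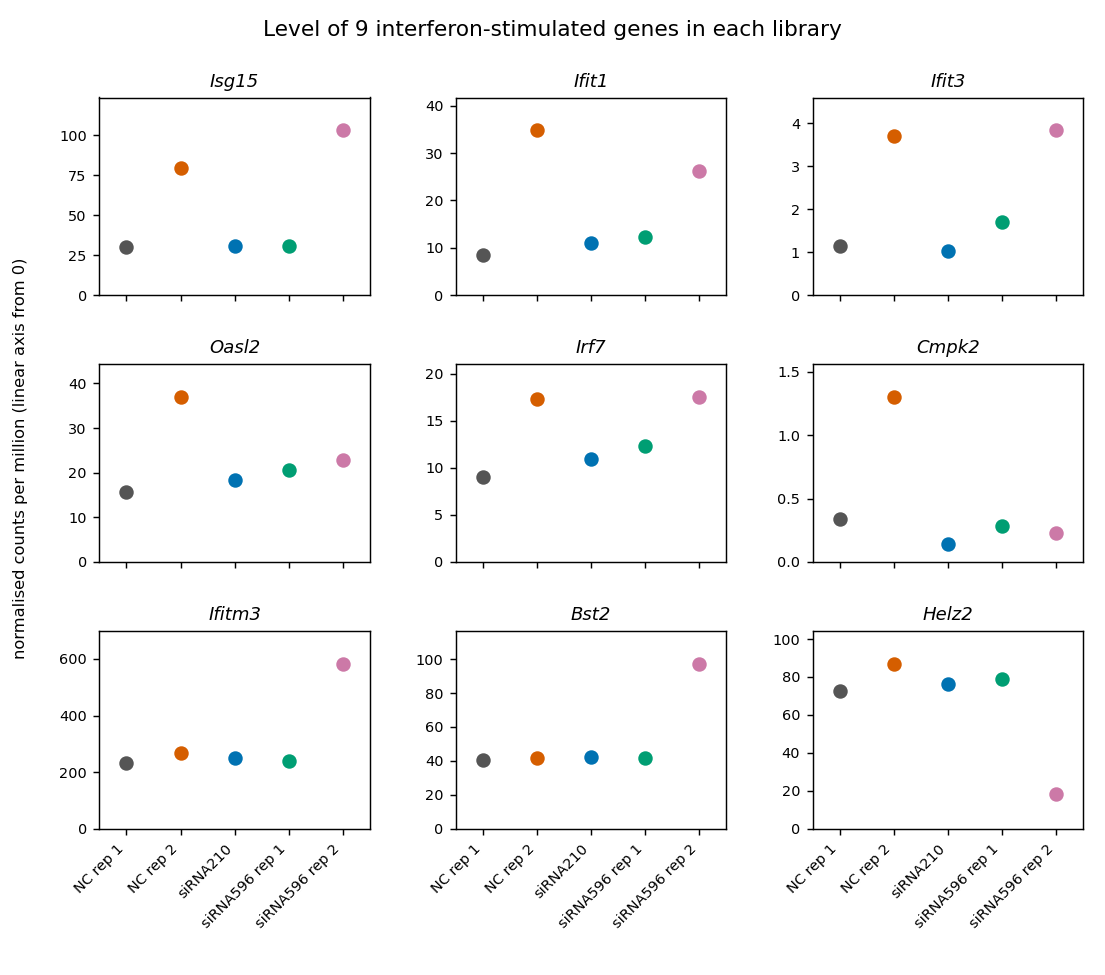
Normalised CPM (vertical axes, each from 0) of 9 interferon-stimulated genes in the 5 libraries, 1 point a library. Isg15, Ifit1, Ifit3, Oasl2 and Cmpk2 have NC replicate 2 well above NC replicate 1 and both KD libraries of the 4, whereas Ifitm3, Bst2 and Helz2 differ chiefly in siRNA596 replicate 2.

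IFIT proteins bind foreign RNA ends and translation factors, and their genes lie side by side on chromosome 19. Ifit1 (chr19:34640871-34650009), which recognises the caps of viral RNA, had 295, 1336, 392, 436 and 691 counts, or 8.39, 34.8, 11.0, 12.2 and 26.2 CPM. Its 4.15-fold ratio between NC replicate 2 and NC replicate 1 (3.66 to 4.73) was the largest among the 40 members. Ifit3, of the same family, had 40, 142, 37, 61 and 101 counts (3.25-fold, 2.28 to 4.75), and its near copy Ifit3b had 30, 67, 24, 18 and 35 (2.05-fold, 1.31 to 3.26). Ifit2, which promotes apoptosis, stood apart with 1022, 1250, 921, 1117 and 425 counts, a ratio of 1.12 (1.03 to 1.22). Ifit2 was thus nearly level across the 4 libraries, although it lies beside Ifit3 and has a higher count than Ifit3. Per kilobase of exon its level in NC replicate 1 was 7.40 CPM, against 3.16 for Ifit1 and 0.652 for Ifit3. In NC replicate 2 the order of Ifit1 and Ifit2 turned, with 13.1 and 8.30 CPM per kilobase.

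The OAS genes, in a cluster and a pair on chromosome 5, encode the enzymes that make oligoadenylates, the activators of RNase L, and related proteins. Oas1a, such an enzyme, had 22, 83, 33, 47 and 41 counts (3.46-fold in NC replicate 2, 2.14 to 5.81). Oas2, a longer synthetase, had 52, 123, 44, 28 and 6 counts (2.17-fold, 1.56 to 3.06). Oas3, the longest synthetase of the family, had 112, 118, 118, 105 and 18 counts, a ratio of 0.966 (0.740 to 1.26), and was the single member not above 1 in NC replicate 2. Oasl1, which inhibits translation of Irf7, had 397, 853, 311, 412 and 606 counts (1.97-fold, 1.75 to 2.22). Oasl2, its OAS-like neighbour, had 552, 1415, 653, 732 and 604 counts (2.35-fold, 2.13 to 2.60). The abundant Oasl1 and Oasl2 and the scarce Oas1a and Oas2 were past 1.5-fold, and the neighbour of Oas2, Oas3, was level in the 4 libraries. In siRNA596 replicate 2 both Oas2 and Oas3 were low, at 0.154 and 0.214 of their level in NC replicate 1.

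Mx and Gbp proteins are large GTPases that act on viral capsids and on the membranes around intracellular pathogens. Mx1 had 2, 4, 12, 4 and 6 counts, too few for a comparison. Mx2 had 48, 90, 43, 43 and 43 counts (1.72-fold in NC replicate 2, 1.20 to 2.49), the same count of 43 in all 3 KD libraries. Gbp2 had 204, 348, 217, 230 and 161 counts (1.56-fold, 1.31 to 1.87), and Gbp3 had 124, 314, 105, 152 and 158 (2.32-fold, 1.88 to 2.88). Gbp7, with 156, 208, 147, 149 and 51 counts, was not past 1.5-fold (1.22, 0.989 to 1.51). The 3 Gbp genes are neighbours on chromosome 3, and all carried the motif.

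Among the other antiviral effectors the rarest genes had the largest ratios. Cmpk2, a mitochondrial nucleotide kinase, had 12, 50, 5, 10 and 6 counts (3.82-fold in NC replicate 2, 2.01 to 7.88). Its neighbour on chromosome 12, Rsad2, which encodes the radical enzyme viperin, had 30, 63, 30, 34 and 18 (1.93-fold, 1.23 to 3.08). Ifitm3, a membrane protein that blocks viral fusion, was the member with the most reads at 8166, 10232, 8938, 8586 and 15369, and its ratio in NC replicate 2 was 1.15 (1.12 to 1.18). Bst2, or tetherin, which holds budding virions at the surface, had 1427, 1598, 1505, 1499 and 2564 counts, with a ratio of 1.03 (0.955 to 1.10). It lay between 40.6 and 42.1 CPM in the 4 libraries despite the 2 motif matches in its promoter, and reached 97.1 CPM in siRNA596 replicate 2. Zc3hav1, the zinc-finger antiviral protein that degrades CpG-rich RNA, had 3747, 4405, 3687, 3934 and 2104 counts, a ratio of 1.08 (1.03 to 1.13). Samd9l, a translation inhibitor, had 2482, 3332, 2509, 2612 and 602 (1.23-fold, 1.17 to 1.30). None of these last 4 abundant genes was past 1.5-fold between any pair of the 4 libraries.

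The ADP-ribosylation and nuclear factors formed the most even group. Parp9, an inactive partner of the ubiquitin ligase DTX3L, had 1116, 1468, 1016, 967 and 686 counts (1.21-fold in NC replicate 2, 1.11 to 1.30). Dtx3l had 705, 923, 739, 842 and 326 (1.20-fold, 1.09 to 1.33), and Parp14, a mono-ADP-ribosyltransferase, had 545, 718, 608, 648 and 213 (1.21-fold, 1.08 to 1.35). All 3 genes adjoin on chromosome 16. Parp9 (chr16:35938470-35972605, plus strand) and Dtx3l (chr16:35926511-35939151, minus strand) overlap at their ends on opposite strands, and the strand setting of the counting is not given in the sources used here, so reads in the overlap cannot be told apart. Helz2, a helicase and nuclear receptor coactivator, had 2555, 3329, 2734, 2824 and 484 counts (1.19-fold, 1.13 to 1.26). Sp100, a component of PML nuclear bodies, had 254, 307, 265, 305 and 200 (1.11-fold, 0.935 to 1.31). The 5 log2 ratios in NC replicate 2 ran from 0.15 to 0.27, a narrower range than in any other group of 5 or more members.

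The remaining 7 members were again higher in NC replicate 2, by log2 ratios of 0.32 to 1.27. Ifi44, a GTPase-like protein, had 66, 173, 64, 71 and 48 counts (2.40-fold, 1.80 to 3.24). Rtp4, a receptor chaperone, had 297, 744, 330, 366 and 481 (2.30-fold, 2.01 to 2.64). Trim21, the cytosolic antibody receptor and ubiquitin ligase, had 219, 380, 258, 216 and 90 counts (1.59-fold, 1.34 to 1.89). These 3 were past 1.5-fold. Lgals3bp, a secreted glycoprotein, had 2059, 3121, 2328, 2351 and 2531 counts (1.39-fold, 1.31 to 1.47), and Ifi35, a partner of NMI, had 745, 1123, 780, 796 and 1977 (1.38-fold, 1.26 to 1.52). Xaf1, a pro-apoptotic binder of XIAP, had 588, 873, 498, 577 and 558 counts (1.36-fold, 1.22 to 1.51). Ifi27, a mitochondrial protein, had 2583, 3518, 3072, 2868 and 5040 (1.25-fold, 1.19 to 1.31). By role, the median log2 ratio in NC replicate 2 was 1.37 for the IFIT family, 1.12 for the OAS family, 0.78 for the Mx and Gbp GTPases, 0.71 for the transcription factors, 0.70 for the ISG15 system, 0.47 for the 7 genes of this paragraph, 0.26 for the ADP-ribosylation and nuclear factors and 0.25 for the other antiviral effectors.

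The same order of libraries was seen against the KD libraries, which share NC replicate 2 in these comparisons. NC replicate 2 was more than 1.5-fold above siRNA210 for 17 of the 39 members tested, beside 9.44% of all genes, and above siRNA596 replicate 1 for 16 of 39, beside 8.12%. The median log2 differences were 0.47 and 0.50, and 0 members tested were past 1.5-fold in the opposite direction in either comparison. By contrast, siRNA210 was past 1.5-fold above NC replicate 1 for 0 of 39 members (6.09% of all genes) and below it for 1 (8.26%), which was Cmpk2 with 5 against 12 reads. For siRNA596 replicate 1 the numbers were 1 higher (6.57%), Oas1a, and 2 lower (7.07%), Oas2 and Ifit3b, all with 18 to 52 reads in these libraries. Between the 2 siRNAs themselves, siRNA210 was past 1.5-fold above siRNA596 replicate 1 for 1 member (6.48%) and below it for 2 (7.83%). The members' summed level was 1099 CPM in NC replicate 1, 1143 in siRNA210, 1159 in siRNA596 replicate 1 and 1446 in NC replicate 2. In siRNA596 replicate 2 it was higher still, at 1647. Without Ifitm3 the sums were 867, 893, 919 and 1180 CPM in the same order, and 1065 in siRNA596 replicate 2. The siRNA210 library and siRNA596 replicate 1, with different siRNAs, thus lay close to each other and to NC replicate 1 in these genes.

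The library labelled siRNA596 replicate 2 had a different pattern, which went with the summed exon length of the genes. Against NC replicate 1, 15 of the 39 members were past 1.5-fold higher, beside 28.7% of all genes, and 11 were past it lower, beside 34.9%. All 14 members under 3000 bases of exon were higher, with a median log2 ratio of 1.29, and the 25 longer ones had a median of -0.42 with 8 above 0. Ifi35, Isg15, Ifit3 and Ifit1 were 3.54-, 3.47-, 3.36- and 3.12-fold higher, and the long genes Helz2 and Samd9l stood at 0.252 and 0.323 of their level in NC replicate 1. Across genes, Spearman's rho between length and log2 ratio was -0.77 for the 39 members and -0.42 for 15508 genes, as a description of this library, with all genes sharing its depth. After the trend over all genes was subtracted the members' median was 0.34, and 13 were past 1.5-fold higher and 7 lower. The share of all genes past this fold after the subtraction was not computed. Among the higher members Ifit1 stood at 1.30, Ifi35 at 1.25 and Isg15 at 1.07 on the log2 scale. Among the lower ones Oas2 stood at -2.62, Oas3 at -1.73, Samd9l at -1.38 and Helz2 at -1.09. NC replicate 2 showed no such trend over all genes (rho 0.02), and its median for the tested members was 0.65 before and 0.66 after the subtraction. Among the 39 members, however, rho was -0.38 in NC replicate 2 (-0.40 after the subtraction), with a median log2 ratio of 0.99 for the 14 under 3000 bases and 0.34 for the 25 longer ones. Set against each other, NC replicate 2 was past 1.5-fold above siRNA596 replicate 2 for 16 of 39 members (32.9% of all genes) and below it for 4 (29%). Whether RNA quality played a part in the length trend was not tested.

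**Figure D3:**
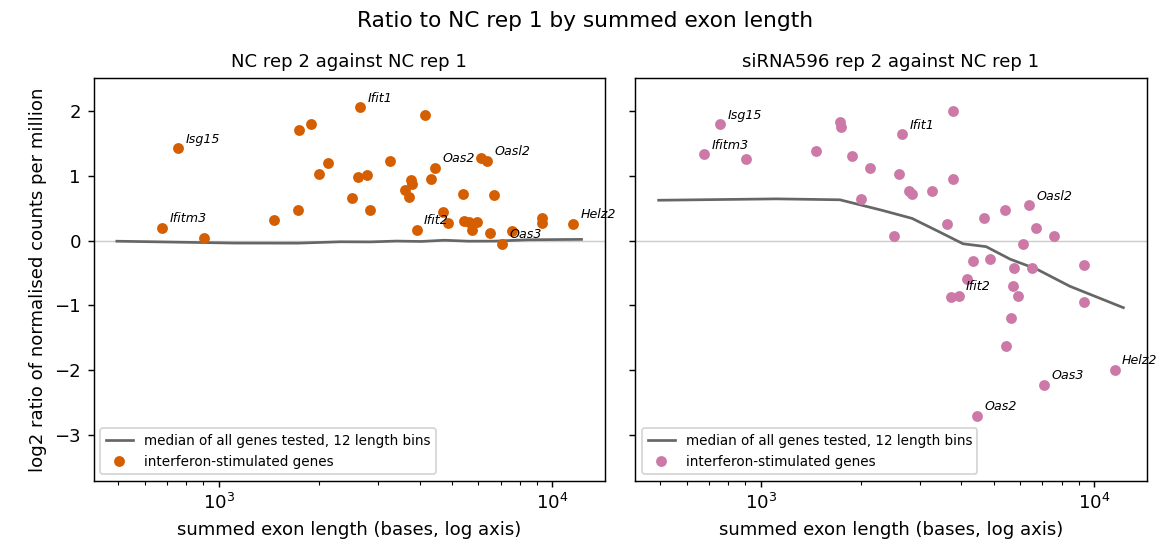
Log2 ratio to NC replicate 1 against summed exon length (log axis) for the interferon-stimulated genes (points) and the median of all genes tested in 12 length bins (line), for NC replicate 2 (left) and siRNA596 replicate 2 (right). The line stays near 0 on the left and falls with length on the right. On the left 39 of 40 members are above 0 at lengths from 678 to 11529 bases.

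The comparison of KD with NC, the question of the study's design, pools siRNA210 and siRNA596 replicate 1 against both NC libraries. The members' log2 fold changes were below 0 for 34 of 39, with a median of -0.255 beside -0.0023 over all 15867 genes. At an unadjusted P of 0.05, 6 members were lower in KD (1.55% of all genes) and 0 were higher (1.75%). At an adjusted P of 0.05 none of the 39 passed, nor did any of the other genes tested (0%), and the smallest adjusted P was 0.967. At the unadjusted threshold 523 genes passed, and DESeq2 called 1 gene at an adjusted P of 0.05, which was no member. The 6 members were Oas2 at -1.22 ± 0.46 (SE, 2 against 2 libraries), Cmpk2 at -1.96 ± 0.78, Isg15 at -0.84 ± 0.34, Oasl1 at -0.73 ± 0.29, Xaf1 at -0.40 ± 0.17 and Parp9 at -0.34 ± 0.12, with unadjusted P values in edgeR's model across all genes of 0.0252, 0.0324, 0.0371, 0.0297, 0.0456 and 0.0225. Ifit1 (-0.91 ± 0.49), Ifit3 (-0.83 ± 0.53) and Ifi44 (-0.76 ± 0.41) had differences as large as that of Isg15 or nearly so, but did not pass (unadjusted P of 0.0949, 0.153 and 0.0946 in the same model). The 5 members with the most reads had small differences, with Ifitm3 at -0.03 ± 0.09, Zc3hav1 at -0.06 ± 0.08, Trim25 at -0.08 ± 0.09, Ifi27 at 0.01 ± 0.11 and Lgals3bp at -0.10 ± 0.14. Both KD libraries lay below both NC libraries for 7 of 39 members, beside 16.2% of all genes, and above both for 1, Bst2, beside 16.7%. The first count was near the background and the second below it. The 7 were Cmpk2, Gbp7, Ifit3b, Mx2, Oas2, Parp9 and Xaf1.

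The members' median depended on which NC libraries were used, and less on the KD libraries. It was -0.22 without siRNA210 and -0.27 without siRNA596 replicate 1. Without NC replicate 2 the members' median was 0.06, 12 of 40 were below 0, and 0 members were lower at an unadjusted P of 0.05 (1.12% of all genes) while 1, Ifit1, was higher (1.4%). None of the 6 members named above passed then: Isg15 stood at 0.04, Oas2 at -0.55, Cmpk2 at -0.69, Oasl1 at -0.16, Xaf1 at -0.15 and Parp9 at -0.19. Ifit1 stood at 0.46. Without NC replicate 1 the median was -0.53 and 25 of 40 members were lower (7.06%), with none past an adjusted P of 0.05. In both fits the lone NC library was assumed to vary like the KD libraries. With all 5 libraries the median was -0.25 and 1 of 39 members was lower (0.18%), Cmpk2, at -1.92 on the log2 scale. For siRNA596 alone, with its 2 libraries against both NC libraries, 1 of 39 was lower (0.107%), Oas2, at -2.19, and the median was -0.28. Neither Cmpk2 nor Oas2 passed an adjusted P of 0.05 in these fits.

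**Figure D4:**
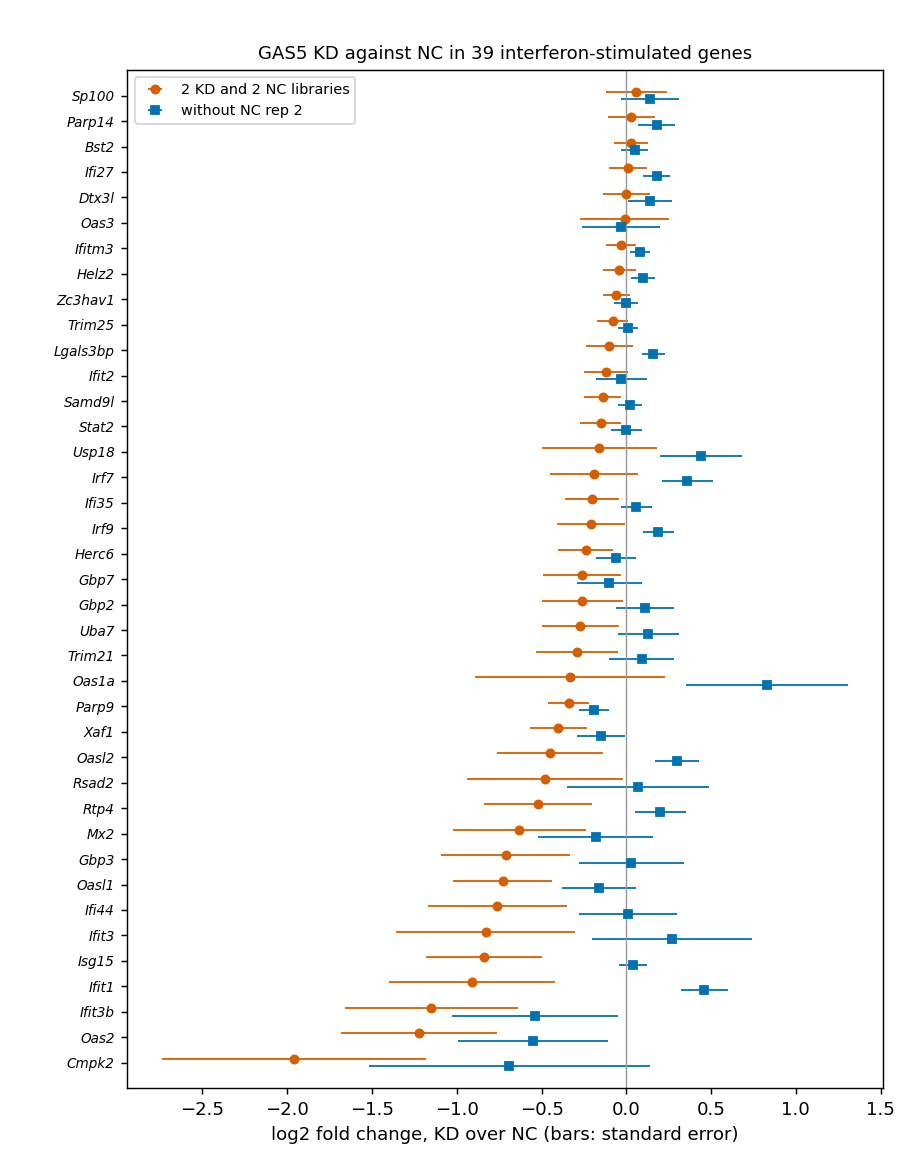
Log2 fold change of KD over NC with its standard error from edgeR (horizontal axis) for the 39 members tested (rows), with 2 KD and 2 NC libraries (circles) and without NC replicate 2 (squares). The circles lie below 0 for 34 genes and the squares gather around 0, with a median of 0.06 over the 40 members of that fit.

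The pathway upstream of these genes was read from a separate list of 32 genes. Of the 10 interferon ligands, Ifne alone had reads, with 4, 6, 0, 1 and 2, and Ifnb1, 4 Ifna genes, Ifnk, Ifng and both Ifnl genes were listed at 0 in all 5 libraries. A count of 0 allows up to 3 reads a library, so a lower level was not detectable at this depth. The receptor chains were present, with 3762, 3579, 3637, 3674 and 2088 counts for Ifnar1 and 1279, 1223, 1431, 1299 and 954 for Ifnar2. Ifngr1 had 1829 to 2217 counts, Ifngr2 had 1979 to 2963 and Il10rb had 690 to 772, while Ifnlr1 of the type III receptor was at 0. Jak1 had 9673, 9206, 10234, 9688 and 3422 counts, Jak2 had 1506, 1686, 1398, 1419 and 655, Tyk2 had 1845, 1804, 2190, 1945 and 841, and Stat3 had 7347, 6707, 7919, 7291 and 2927. None of these receptors and kinases, and not Stat3, was past 1.5-fold between the NC libraries. Of the 20 pathway genes tested in KD against NC with 4 libraries, 0 passed an unadjusted P of 0.05, and their median log2 fold change was 0.0385. Among 9 sensors of foreign RNA and DNA, 1 passed an unadjusted P of 0.05 in the lower direction (1.55% of all genes), Zbp1, at -1.06 ± 0.36 with an adjusted P of 0.967. Without NC replicate 2 it stood at -0.67. Ifih1, which encodes the RNA sensor MDA5, had 521, 1286, 657, 693 and 381 counts and so was 2.26-fold higher in NC replicate 2 (2.04 to 2.51).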

How the data were processed

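Each count is a whole number of reads per gene as deposited by the authors, who trimmed reads with Trimmomatic, aligned them to GRCm38 with HISAT2 2.1.0, handled alignments with SAMtools 1.7 and counted with featureCounts 2.0.1 per the labels' tool list and the methods. The handling of multi-mapping reads and the strand setting are not given in the sources used here. The authors' table from DESeq2 1.26.0 holds mean expression, log2 fold changes, standard errors, Wald statistics and P values. Its mean column alone was used, to find which libraries it was made from, and the rest was not used. Gene names came from GENCODE M21, which named 99.4% of the identifiers.

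Counts were normalised by TMM and tested in edgeR 4.0.16 (R 4.3.3) by its quasi-likelihood test, restricted to genes that filterByExpr kept, with Benjamini-Hochberg adjustment over all genes tested. Single libraries were compared by ratios of CPM over the 16142 genes tested with 5 libraries, with 95% exact intervals from the counts. Depth of 30660265 to 36492134 counts a library makes counting error small for most members, and 2 libraries a group limit the tests. Exon lengths were unions of annotated exons, and their trend was removed by lowess (span 0.3). The replicate numbers of NC and siRNA596 gave 2 pairs with a correlation of deviations of 0.097 over 15827 genes, so they were not treated as pairing the samples. On simulated data for KD against NC with 15867 genes, edgeR recovered 95% of 200 genes changed 2-fold, with 5 false calls. The changed genes were drawn only from those with a mean above 50 counts. The dispersion set there, a measure of spread between libraries beyond counting error, was 0.0129 for every gene. Recovery for scarcer genes, or for genes with a larger spread, was thus not tested. Recovery for genes that differ between the NC libraries as the members did was not tested. Of the pathway list, 1 gene is not reported individually here. Named members are all those listed, with full statistics for members at an unadjusted P under 0.05, for the 5 largest fold changes at a mean of at least 50 counts and for the 5 highest mean counts. The members, the pathway, sensor and marker lists and the choice of libraries were made with earlier results of these data known. Alternatives were DESeq2 1.42.0, its size factors, library size alone, other filters, an offset for length, each library left out and the replicate number as a block. Figures used Python 3.11.15 and matplotlib 3.10.9.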

Additional observations from a re-analysis of the deposited data

How the results depend on the processing

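At an unadjusted P of 0.05, KD against NC with 4 libraries called 6 members and 523 genes. Using all 5 the numbers were 1 and 60, with all 5 and an offset for exon length 1 and 58, with all 5 except NC replicate 2 (chosen after seeing the data) 0 and 33, and with no filter on low counts 10 and 924. Leaving out 1 library gave 1 to 25 members and 170 to 2776 genes, both highest without NC replicate 1, and a median from -0.53 to 0.06. Without siRNA210 the members numbered 1, and without siRNA596 replicate 1 they numbered 3. DESeq2, its size factors, library size alone and the filter of 10 counts left the members' median between -0.28 and -0.25, the last with 38 members tested. The cause of these shifts was not tested.

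Among the fully reported members the log2 fold change turned in sign without NC replicate 2 for Isg15 (0.04), Ifit1 (0.46), Ifit3 (0.27), Ifi44 (0.01), Ifitm3 (0.08), Zc3hav1 (0.00), Trim25 (0.01) and Lgals3bp (0.16). With all 5 except NC replicate 2 it turned for Isg15 (0.87), Oasl1 (0.34), Xaf1 (0.02), Ifit1 (0.96), Ifit3 (0.93), Ifitm3 (0.61) and Lgals3bp (0.36). With all 5 libraries it turned for Isg15 (0.00), Ifitm3 (0.52, and 0.17 with the length offset) and Lgals3bp (0.11). Ifi27 turned to -0.01 with library size alone, -0.05 without siRNA210 and -0.15 without NC replicate 1. Leaving out each library in turn gave ranges of -1.38 to 0.04 for Isg15, -1.67 to -0.55 for Oas2, -1.14 to -0.16 for Oasl1, -2.62 to -0.69 for Cmpk2, -0.47 to -0.19 for Parp9, -0.60 to -0.15 for Xaf1, -1.59 to 0.46 for Ifit1, -1.43 to 0.27 for Ifit3, -1.26 to 0.01 for Ifi44, -0.13 to 0.08 for Ifitm3, -0.11 to 0.00 for Zc3hav1, -0.15 to 0.18 for Ifi27 and -0.32 to 0.16 for Lgals3bp.

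For siRNA596 against NC, the replicate number as a block gave 1 member, as without it, and 428 genes in place of 41. Same-numbered libraries shared only a number, with 2 pairs. Leaving out 1 library (chosen after seeing the data) gave 0 to 20 members and 27 to 9412 genes, highest without siRNA596 replicate 1. That fit sets siRNA596 replicate 2 alone against NC. Without siRNA596 replicate 2 the genes numbered 170.

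At 2-fold in place of 1.5-fold, 12 members were higher in NC replicate 2 than in NC replicate 1 (3.88% of all genes), 1 was higher (3.12%) and 0 were lower (3.61%) in siRNA596 replicate 1, and 5 were lower in siRNA596 replicate 2 (23.9%). In that library 10 of the 39 members tested were higher at 2-fold (17.7%). The median in NC replicate 2 ranged from 0.47, with members of at least 10 counts in every library, to 0.68. The median in siRNA596 replicate 2 was -0.04 with library size alone and 0.34 with the length trend removed.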

Other observations

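The other genes that were high in NC replicate 2 were listed after their values were seen. Of 12212 genes with a mean of at least 50 counts, 59 were more than 2-fold above NC replicate 1, and 9 of these were members, which is 15.3% of the 59 genes and 25.7% of the 35 members at that depth. Beside the listed members the 59 held Ddx60, a helicase related to the RNA sensors, with 52, 156, 71, 66 and 10 counts in NC replicate 1, NC replicate 2, siRNA210, siRNA596 replicate 1 and siRNA596 replicate 2. They also held Tfrc, the transferrin receptor, with 4454, 13662, 3677, 4622 and 5069 counts. The highest ratio was that of Hdc, histidine decarboxylase, with 20, 133, 32, 34 and 55 counts, and Thbs1, which encodes thrombospondin, had 9585, 22212, 9768, 9919 and 6440. These genes were picked from the 59 by eye, and several of the others are pseudogenes. NC replicate 2 thus differed from NC replicate 1 in more than the listed members, which are not a full set of interferon-stimulated genes. Whether these differences have a common source was not tested.

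Of the RNA and DNA sensors, Ddx58, which encodes RIG-I, had 1879, 2979, 1945, 2121 and 1106 counts in the same order, and Eif2ak2, which encodes the kinase PKR, had 3565, 4849, 3534, 3993 and 1143. In KD against NC the 9 sensors were all below 0 with 4 libraries, at a median of -0.206, and without NC replicate 2 their median was 0.0356.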
